A study of Mus musculus with 55 samples.

Results

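In Cnih3 knock-out (KO) female mice, the dorsal hippocampus in metestrus was compared with that in diestrus, using 11 of the 55 RNA-seq libraries of the series. The members are all mice labelled KO with a metestrus (5 mice) or diestrus (6 mice) stage, and no measured value was used to choose them. The series holds 1 library per mouse from dorsal hippocampi of wild-type (WT) and KO C57BL/6J mice in 10 groups, which are males and females at 4 stages of the estrous cycle in each genotype. Stages were scored from vaginal cytology. All 11 mice carry the same constitutive allele, which lacks exon 4 of Cnih3 and shifts its reading frame, so neither group is a control for the deletion. Cnih3 encodes cornichon homolog 3, an auxiliary protein of AMPA-type glutamate receptors.

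The metestrus mice are 10_1, 11_1, 14_4, 6_1 and 7_2, at ages of 18.71, 13.57, 13.29, 20.57 and 22.57 weeks. The diestrus mice fall into 2 kinds by the form of their number in the labels and are shown apart throughout. Mice 532, 643, 644 and 645 have 3-digit numbers and were 13.86, 11, 10.86 and 11 weeks old. Mice 2592 and 7_1 have other forms of number, as all 5 metestrus mice do, and were 16.29 and 23.43 weeks old. The sources used here do not say what the number forms stand for. Because no metestrus mouse has a 3-digit number, stage and number form cannot be told apart in the comparison of metestrus with the 3-digit mice. Age is only partly separate from them there, as mouse 532 alone of the 3-digit mice was older than any metestrus mouse (11_1 and 14_4). Mean age was 3.34 weeks higher in metestrus (17.7 ± 4.17 weeks, SD, n = 5) than in diestrus (14.4 ± 4.92 weeks, SD, n = 6), a difference that a two-sided exact permutation test did not separate from 0 (p = 0.271, smallest possible p = 0.00433).

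The estrous cycle of mice runs from proestrus through estrus and metestrus to diestrus. Estradiol peaks in proestrus and progesterone is higher in the luteal stages, and hippocampal neurons and glia carry receptors for both hormones. Bulk tissue RNA mixes pyramidal cells, granule cells, interneurons, oligodendrocytes, astrocytes, microglia and vessels, so that a transcript can differ because its cells express it differently or because the sample holds another share of those cells.

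Totals of counts per library were 49028581 to 61472649 in metestrus and 52307959 to 57198441 in diestrus. Markers of the labelled tissue were present in all 11 libraries. The summed level of 7 dentate granule cell markers was 287 to 399 CPM (counts scaled to a fixed library size, with totals adjusted by TMM), that of 7 CA1 pyramidal cell markers 373 to 449 CPM, and that of 9 CA2 and CA3 markers 364 to 652 CPM. Cnih3 itself was counted at gene level at 4.43 to 5.58 log2 CPM over the 28 KO mice and at 4.43 to 5.97 over the 27 WT mice. Such a count takes in all exons and therefore does not check the loss of exon 4. Markers of choroid plexus and pituitary, tissues outside the hippocampus, differed between mice. The summed level of 13 choroid plexus markers was 1956 CPM in metestrus mouse 11_1, 162 to 222 CPM in the other 4 metestrus mice, 217 to 837 CPM in the 3-digit mice and 149 to 160 CPM in the other diestrus mice. The summed level of the 3 pituitary markers that passed the filter was 13.8 to 217 CPM in metestrus and 7.96 to 184 CPM in diestrus, and pituitary Lhb had 0 counts in all 11 mice.

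Metestrus and diestrus KO mice differed at 1689 of 16168 genes in the model used by the study, which weights each library by an estimate of its quality (limma, false discovery rate (FDR) under 0.05). Of these differentially expressed genes (DEGs), 1325 were higher in metestrus (8.2% of genes tested) and 364 lower (2.25%). The median log2 fold change (FC) was 0.56 over the higher DEGs and -0.40 over the lower ones, and 0.01 over all genes. Genes of myelin, nuclear long non-coding RNAs and chaperones of the endoplasmic reticulum (ER) were higher in metestrus, while several astrocyte and endothelial genes were lower. This count was reached only with library weights. The 3-digit mice had weights of 1.61 to 1.74 and mice 2592 and 7_1 weights of 0.51 and 0.43, so that the 3-digit mice held 87.7% of the summed weight of diestrus. Without weights, limma called 0 genes (1357 at unadjusted p under 0.05), edgeR called 0 (1176) and DESeq2 called 4 (1233). Leaving out single mice moved the limma count from 667 (without 532) to 2350 (without 7_1), and it was also more than 1.5 times lower without 6_1 (1115), 643 (944) or 645 (867).

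Set against the 3-digit diestrus mice alone, metestrus differed at 2738 genes, with 1982 higher (12.3%) and 756 lower (4.68%). This comparison kept calls under each test. Limma without weights called 645 genes, edgeR 793 and DESeq2 1002, and 632 genes were called in 1 direction by all 4 fits (537 higher and 95 lower). The share of higher genes was 72.4% with weights, and 84.0%, 87.3% and 84.3% in these 3 fits. Without mouse 532 the limma count was 1786. Of the 1689 DEGs against all 6 diestrus mice, 99.5% were also DEGs against the 3-digit mice, which is 61.4% of the latter. Both comparisons use the same metestrus and 3-digit mice, so this overlap is not independent support. Set against the other diestrus mice, 2592 and 7_1, metestrus differed at 0 genes by limma, with a smallest FDR of 0.9998 and 498 genes at unadjusted p under 0.05 (3.08%). There edgeR called 0 genes (221 at unadjusted p under 0.05) and DESeq2 called 1 (255), Sycp1, which was near 0 counts in several mice of both stages. Without mouse 7_1, limma called 2 genes there, Spp1 and Adgrf5, which were named after their values were seen. With 2 mice of low weight this comparison is less precise, with a median standard error (SE) of 0.20 log2 units against 0.13 for the 3-digit mice, so that a miss of the threshold does not show equal levels.

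The difference between those 2 comparisons is itself a contrast between the 2 kinds of diestrus mice, and it was tested. The 3-digit mice differed from mice 2592 and 7_1 at 1233 genes, of which 194 were higher in the 3-digit mice (1.2%) and 1039 lower (6.43%). Without weights limma called 497 genes, edgeR 511 and DESeq2 593. It had 719 genes without mouse 7_1 and 775 without 532. Both sides of this contrast are labelled KO and diestrus. The larger groups of genes are therefore given below against both kinds of diestrus mice. The share of a list that was called is to be read beside that of all genes. Over all genes it was 8.2% higher and 2.25% lower against all 6 diestrus mice, and 12.3% and 4.68% against the 3-digit mice. For the 17 lists with 3 or more members called and the 13 lists with 1 or 2, edgeR, DESeq2 and limma without weights called 0 members against all 6 diestrus mice, so that list counts against all 6 mice rest on the weighted fit.

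**Figure D1:**
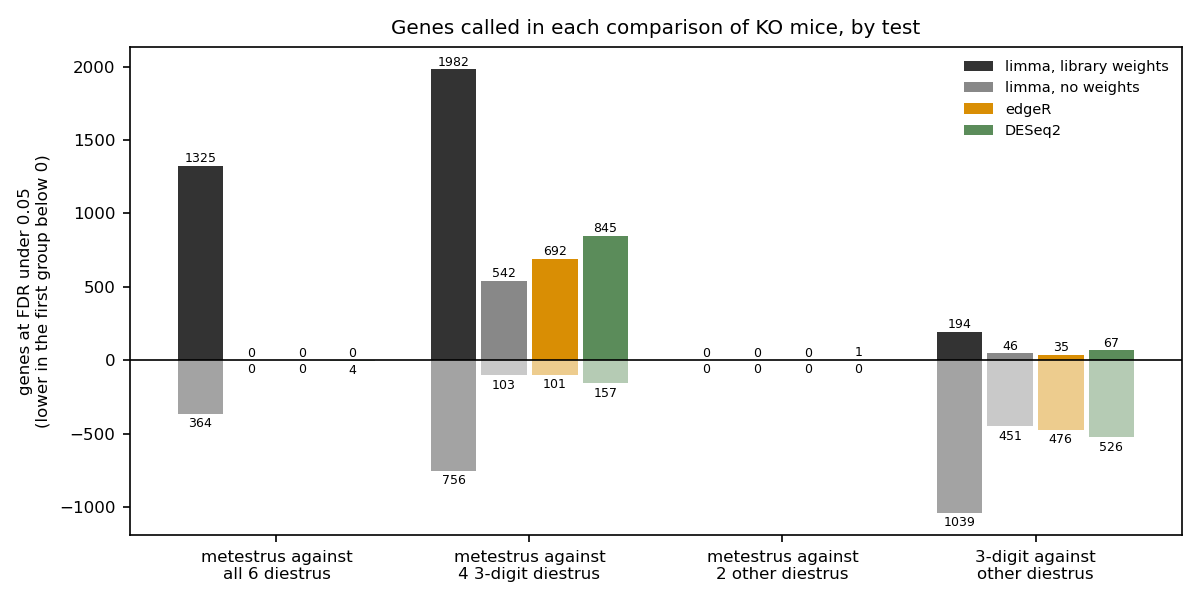
Number of genes at FDR under 0.05 (y axis; genes higher in the first-named group above 0, lower below 0, paler) in 4 comparisons of KO mice, with 1 bar for each of 4 tests. Metestrus against all 6 diestrus mice has 1325 higher and 364 lower genes only with library weights, whereas metestrus against the 4 3-digit mice has calls with every test.

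Nuclear long non-coding RNAs differed most in size. These transcripts are retained in the nucleus, where Malat1 lies in splicing speckles and Neat1 builds paraspeckles. Of 11 listed, 6 were higher in metestrus (54.5%, as against 8.2% of all genes) and 1, Peg13, lower. The median log2 FC over the list was 0.99 against all diestrus mice. It was 1.16 against the 3-digit mice and -0.36 against the other mice. Each of the 4 fits called 6 higher against the 3-digit mice. Within diestrus, 7 of 11 were lower in the 3-digit mice, with a median of -1.52.

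Meg3 (chromosome 12, 109541001 to 109571726, GRCm38), a long RNA of the imprinted Dlk1-Dio3 region, had log2 CPM values of 9.05, 10.04, 9.90, 10.14 and 8.80 in metestrus mice 10_1, 11_1, 14_4, 6_1 and 7_2. In the 3-digit diestrus mice 532, 643, 644 and 645 it had 7.68, 7.65, 7.17 and 7.40, and in mice 2592 and 7_1 it had 10.17 and 10.29. Metestrus therefore lay between the 2 kinds of diestrus mice and overlapped neither. Its log2 FC was 2.09 ± 0.31 (SE) against the 3-digit mice (limma, FDR = 7.47e-06) and -0.64 ± 0.47 against the other mice (unadjusted p = 0.173). Malat1 (chromosome 19, 5795690 to 5802672) had 9.34, 10.52, 9.90, 10.75 and 9.58 in metestrus, 8.58, 8.71, 8.11 and 7.88 in the 3-digit mice, and 10.76 and 11.04 in the other mice. It was again lowest in the 3-digit mice and highest in the other diestrus mice, with a log2 FC of 1.68 ± 0.26 (limma, FDR = 1.25e-05) and -0.90 ± 0.40 (unadjusted p = 0.0282) respectively. Miat, a long RNA of neuronal nuclei, had 3.91 to 5.40 in metestrus, 2.93 to 3.38 in the 3-digit mice and 5.57 and 5.78 in the other mice. Snhg11 had 7.87 to 9.53, 6.96 to 7.50, and 9.56 and 9.29.

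The summed level of the list was 1990 to 4076 CPM in metestrus, 1163 to 1394 CPM in the 3-digit mice and 4296 and 4619 CPM in mice 2592 and 7_1. Metestrus mice were spread as well. Mice 10_1 and 7_2 had 2029 and 1990 CPM, and 11_1, 14_4 and 6_1 had 3941, 3083 and 4076 CPM. The study prepared RNA from a detergent lysate cleared by a spin, and the part of this step in the level of these nuclear RNAs was not tested. Whether their level goes with the results that follow was not tested either.

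The genes that differed most within diestrus were chosen by that difference, so that they set the same mice apart follows from the choice. By size, the 5 genes lowest in the 3-digit mice were Meg3, Miat, Malat1, Ftx and Rsrp1. Ftx, a long RNA of the X-inactivation centre, had a log2 FC of -2.31 ± 0.36 in the 3-digit against the other mice (limma, FDR = 0.000155), and Rsrp1, an arginine and serine rich protein, had -2.14 ± 0.54 (limma, FDR = 0.00843). The 5 genes highest in the 3-digit mice were Ezr, Olfr287, Dio2, Aldh1a1 and Sdc4. Dio2, the deiodinase that makes active thyroid hormone in astrocytes, had 3.60, 4.12, 3.74, 3.86 and 3.96 in metestrus, 4.62, 4.82, 4.99 and 4.64 in the 3-digit mice, and 3.71 and 3.79 in the other mice. Aldh1a1, an enzyme of retinoic acid synthesis, had 6.03, 6.13, 5.71, 6.06 and 6.20 in metestrus, 6.90, 6.96, 7.06 and 7.15 in the 3-digit mice, and 6.25 and 5.87 in the other mice. For both genes the other diestrus mice lay at the level of metestrus. The log2 FC of metestrus against the 3-digit mice was -0.93 ± 0.12 for Dio2 (limma, FDR = 1.56e-06) and -1.003 ± 0.12 for Aldh1a1 (limma, FDR = 3.59e-07), and against the other mice it was 0.06 ± 0.20 and -0.05 ± 0.19. Sdc4, the cell surface proteoglycan syndecan-4, had -0.90 ± 0.14 and 0.03 ± 0.23. Ezr, a linker of membrane and actin in astrocyte processes, was not called against all 6 diestrus mice (log2 FC -0.46 ± 0.16, limma, FDR = 0.0539), and its 3-digit values of 5.55 to 5.85 lay above both metestrus (4.68 to 5.30) and the other mice (4.47 and 4.83). Olfr287, an olfactory receptor gene, had 2.68 to 2.80, 1.79 to 2.44, and 1.95 and 1.52 in the same order.

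**Figure D2:**
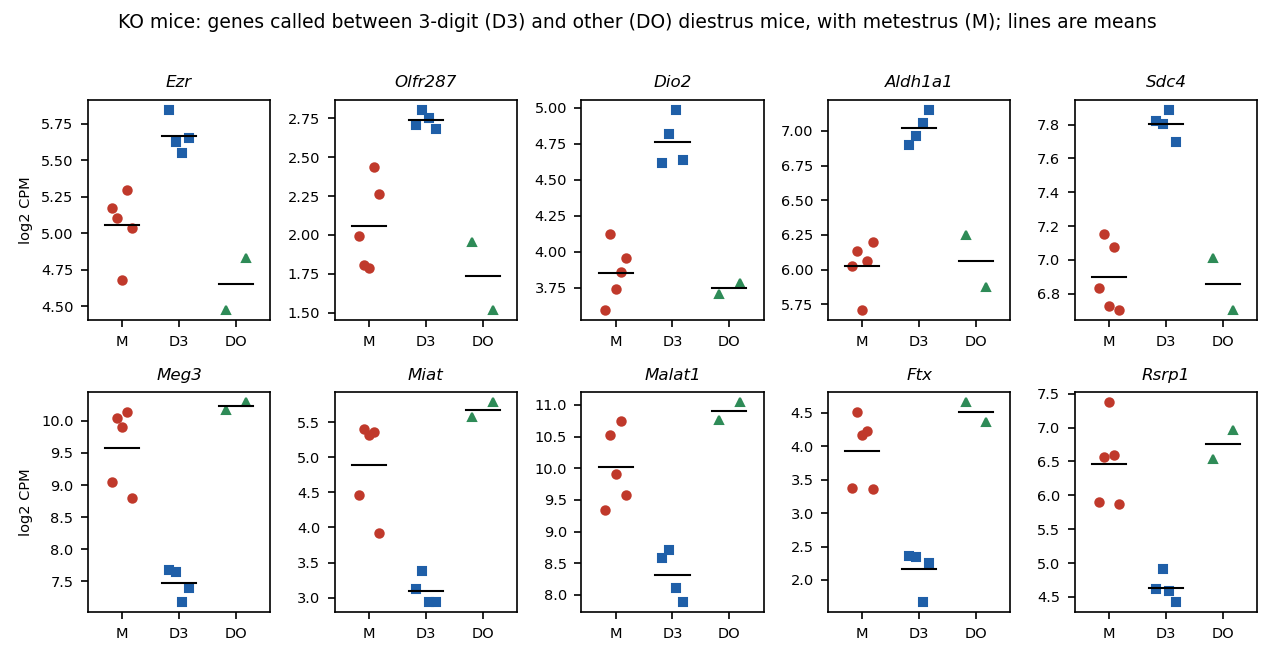
log2 CPM (y axis) of the 10 genes with the widest difference between the 2 kinds of KO diestrus mice, with 1 point per mouse in metestrus (M), 3-digit diestrus (D3) and other diestrus (DO), and lines at the means. In the upper row the D3 mice lie above both other sets, and in the lower row they lie below both, as with Malat1 at 7.88 to 8.71 against 9.34 or more elsewhere.

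Of 29 regulators of splicing, 8 were higher in metestrus (27.6%, as against 8.2% of all genes) and 0 lower. There were 12 higher and 2 lower against the 3-digit mice (12.3% and 4.68% of all genes were). Within diestrus 10 were lower in the 3-digit mice (6.43% of all genes were). Clk1, a kinase of serine and arginine rich splicing factors, had 5.63, 6.05, 5.55, 5.91 and 5.34 in metestrus, 4.71, 4.70, 4.57 and 4.71 in the 3-digit mice, and 5.82 and 5.74 in the other mice. The 3-digit mice were below all others, with a log2 FC of 1.01 ± 0.16 for metestrus against them (limma, FDR = 1.62e-05). Luc7l3, a U1 snRNP-associated factor, had a log2 FC of 0.61 ± 0.10, and Tra2a, an exon enhancer binding protein, had 0.55 ± 0.11. Against mice 2592 and 7_1 the values of Clk1 and Luc7l3 were -0.09 ± 0.23 and -0.17 ± 0.16.

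Against all 6 diestrus mice, myelin genes formed the list with the largest share of calls. Mature oligodendrocytes wrap axons in myelin, and their transcripts code for its proteins and for enzymes of its lipids. Of 19 genes, 17 were higher in metestrus (89.5%, against 8.2% of all genes) and 0 lower, with a median log2 FC of 0.77. Again 17 were higher against the 3-digit mice, with 14 by edgeR, 15 by DESeq2 and 13 by limma without weights, and the median was 0.86. Against the other mice the median was 0.23 and 3 of 19 were at unadjusted p under 0.05. Within diestrus 9 of 19 were lower in the 3-digit mice (6.43% of all genes were), with 6 by edgeR, 8 by DESeq2, 3 by limma without weights, 3 with age as a covariate and 1 to 12 as single mice were left out. In bulk tissue fewer oligodendrocytes and less of these RNAs per cell cannot be told apart.

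Mag, the myelin-associated glycoprotein, had 6.99, 6.78, 6.68, 7.12 and 6.89 log2 CPM in metestrus mice 10_1, 11_1, 14_4, 6_1 and 7_2. It had 5.59, 5.22, 5.36 and 5.87 in the 3-digit mice, and 6.13 and 6.97 in mice 2592 and 7_1. Mouse 7_1 thus lay in the metestrus range, and 2592 between the 2 sets. The log2 FC of Mag was 1.38 ± 0.20 against the 3-digit mice (limma, FDR = 4.54e-06) and 0.37 ± 0.30 against the other mice. Trf, the iron carrier transferrin that oligodendrocytes make, had 8.95, 9.27, 8.62, 9.16 and 8.95 in metestrus, 7.66, 7.21, 7.55 and 7.73 in the 3-digit mice, and 8.45 and 8.81 in the other mice. Cldn11, the tight junction claudin of myelin, had 7.27 to 7.61, 6.31 to 6.64, and 6.91 and 7.41. All 3 had the 3-digit mice apart from metestrus without overlap. The 2 members not called were Mbp and Mobp, which code for basic proteins of compact myelin and whose mRNAs travel into the myelin sheath. Mbp had a log2 FC of 0.21 (limma, FDR = 0.272) and Mobp 0.15 (limma, FDR = 0.430) against all diestrus mice, and in both the lowest value of the 11 mice was that of mouse 2592 (10.09 and 7.46).

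**Figure D3:**
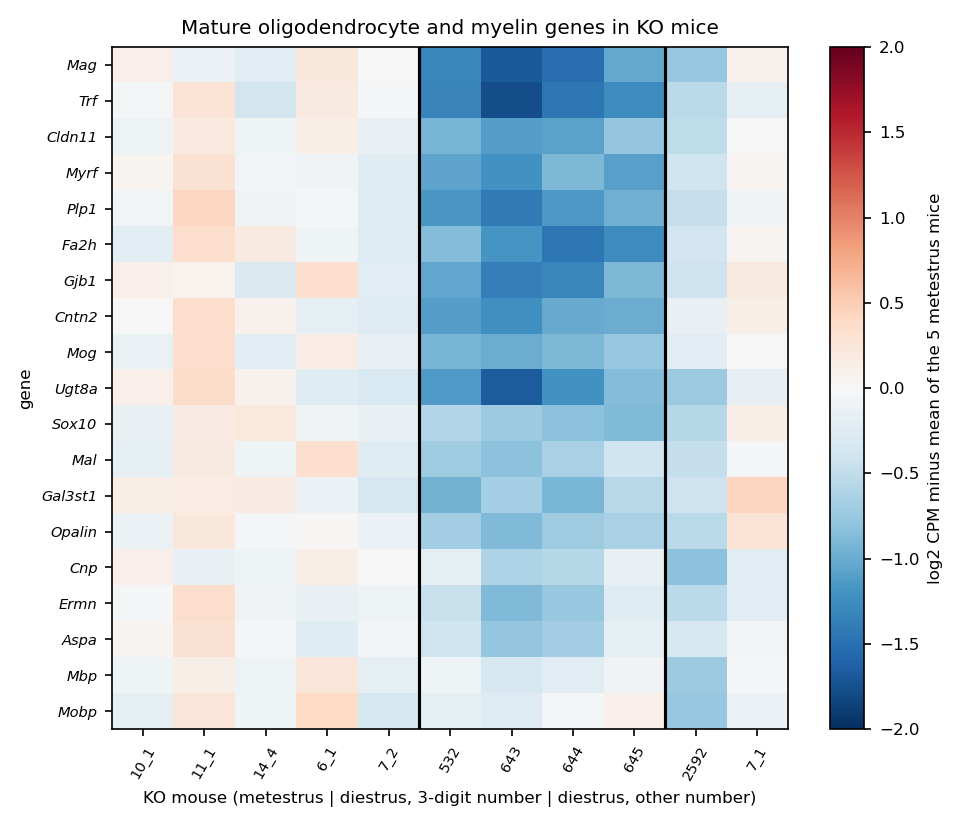
Heatmap of 19 mature oligodendrocyte and myelin genes (rows, ordered by p) in the 11 KO mice (columns), coloured by log2 CPM minus the mean of the 5 metestrus mice. The 4 3-digit diestrus mice are blue for most genes, such as Mag at 5.22 to 5.87 against 6.68 to 7.12 in metestrus, while mouse 7_1 is near 0 and mouse 2592 is lower for many genes, Mbp and Mobp included.

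As single mice were left out, from 1 to 4 of 11 genes of oligodendrocyte precursors were higher in metestrus. With all mice 3 were higher (27.3%, as against 8.2% of all genes) and 0 lower. They were Enpp6, a marker of newly forming oligodendrocytes (log2 FC 0.90), Gpr17, a receptor of committed precursors (0.69), and Olig1, a lineage transcription factor (0.39). Gpr17 had 3.39 to 4.04 in metestrus, 2.67 to 3.21 in the 3-digit mice, and 3.62 and 3.29 in the other mice. Gal3st1, the sulfotransferase that makes the myelin lipid sulfatide, was called as a myelin gene (log2 FC 0.68 ± 0.18, limma, FDR = 0.0105). Its values were 2.21 to 2.71 in metestrus and 1.59 to 1.99 in the 3-digit mice, and mice 2592 and 7_1 had 2.13 and 2.98.

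Chaperones and disulfide isomerases of the ER fold membrane and secreted proteins. Of 15 such genes, 10 were higher in metestrus (66.7%, as against 8.2% of all genes). The median log2 FC of the 15 was 0.53. Against the 3-digit mice 10 of 15 were higher, with 7 by edgeR, 8 by DESeq2 and 6 by limma without weights. Hspa5, the chaperone BiP, had 7.50, 7.14, 7.02, 7.59 and 7.39 in metestrus, 6.61, 6.62, 6.77 and 6.71 in the 3-digit mice, and 7.31 and 7.00 in the other mice. Metestrus lay above the 3-digit mice without overlap (log2 FC 0.70 ± 0.13, limma, FDR = 8.29e-05). Pdia6, a disulfide isomerase, had a log2 FC of 0.68 ± 0.11 and Calr, the calcium-binding chaperone calreticulin, 0.68 ± 0.10 against the 3-digit mice, and 0.15 ± 0.16 and -0.09 ± 0.16 against the other mice. Of 12 cytosolic and mitochondrial heat shock proteins tested, 0 were called by limma in metestrus against all diestrus mice, and of 15 genes of the Atf4 and amino acid stress response only the amino acid transporter chain Slc3a2 was called (log2 FC 0.32).

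Glutamate receptor genes were of interest because Cnih3 serves these receptors. Of 22 AMPA receptor subunits and auxiliary proteins, 7 were higher in metestrus (31.8%, as against 8.2% of all genes) and 0 lower. As single mice were left out, from 3 to 8 were higher. Against the 3-digit mice 9 were higher, with 4 by each of the other 3 fits, and within diestrus 6 were lower in the 3-digit mice. The median of the list was 0.30 against the 3-digit mice and -0.12 against the other mice. Nptx1, a pentraxin that clusters AMPA receptors, had 7.72, 7.63, 7.62, 7.74 and 7.48 in metestrus, 6.89, 6.87, 7.07 and 6.90 in the 3-digit mice, and 7.53 and 7.81 in the other mice. Gria2, the subunit that sets calcium permeability, had 9.28, 9.48, 9.16, 9.28 and 9.06 in metestrus, 8.59, 8.44, 8.81 and 8.67 in the 3-digit mice, and 9.51 and 9.26 in the other mice. For both genes the 3-digit mice were the lowest and the other diestrus mice lay at or above metestrus. The log2 FC against the 3-digit mice was 0.73 ± 0.11 for Nptx1 (limma, FDR = 1.08e-05), 0.62 ± 0.11 for Gria2 (limma, FDR = 9.59e-05) and 0.72 ± 0.17 for the related pentraxin Nptx2 (limma, FDR = 0.00234). Cnih3 had 4.87, 5.03, 5.48, 4.81 and 4.87 in metestrus and 4.43 to 5.02 in diestrus, with a log2 FC of 0.26 ± 0.17 (limma, FDR = 0.317).

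Of 6 NMDA receptor genes tested, only Grin1 was called against all diestrus mice (16.7%, as against 8.2% of all genes). Grin1, the subunit every NMDA receptor needs, had a log2 FC of 0.88 ± 0.20 (limma, FDR = 0.00344). It had 4.75 to 5.28 in metestrus, 4.13 to 4.24 in the 3-digit mice, and 4.65 and 5.54 in the other mice. Of the 6, 3 were higher than in the 3-digit mice, with 1 by each of the other 3 fits. GABA-A receptor genes had 1 of 12 higher (8.33%, as against 8.2% of all genes) and 1 lower, with a median of 0.18. Of 29 potassium channel genes, 6 were higher in metestrus (20.7%, as against 8.2% of all genes, and from 1 to 9 as single mice were left out) and 11 against the 3-digit mice (12.3% of all genes were), where edgeR and DESeq2 called 2 each and limma without weights 0. Kcnt1, a sodium-activated channel, had 2.11 to 3.31 in metestrus, 1.91 to 2.26 in the 3-digit mice, and 3.16 and 3.21 in the other mice. Kcnk9, a leak channel, had 3.50 to 4.31, 3.02 to 3.51, and 4.37 and 4.32. In Kcnk9 the other diestrus mice were above all metestrus mice.

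Of 19 genes of the presynaptic release machinery 5 were higher in metestrus (26.3%, as against 8.2% of all genes) and 0 lower. From 2 to 6 were higher as single mice were left out, but the median of the list was -0.03. There were 5 higher and 2 lower against the 3-digit mice, with 2 higher by each of the other 3 fits. Those of smallest p were the vesicle proteins Sv2a (log2 FC 0.62), Syp (0.40) and Syt1 (0.34). Sv2a had 7.41 to 7.67 in metestrus, 6.67 to 7.11 in the 3-digit mice, and 7.68 and 7.78 in the other mice. Of 20 genes of postsynaptic scaffolds and the kinase CaMKII, 3 were lower (15%, as against 2.25% of all genes). They were Camk2a (-0.41), Shank1 (-0.41) and Homer2 (-0.28), and from 1 to 3 were lower as single mice were left out. Camk2a had 11.00, 11.12, 11.02, 10.87 and 10.69 in metestrus, 11.53, 11.36, 11.30 and 11.43 in the 3-digit mice, and 10.98 and 10.66 in the other mice. Camk2a is a transcript that neurons send into dendrites, and here it was highest in the 3-digit mice without overlap. Of 20 motor protein genes 1 was lower against all diestrus mice (5%, as against 2.25% of all genes), the kinesin heavy chain Kif5a, and 5 were lower against the 3-digit mice, with 1 by each of the other 3 fits. Kif5a had 8.73, 9.11, 8.85, 8.59 and 8.25 in metestrus, 9.57, 9.43, 9.70 and 9.48 in the 3-digit mice, and 8.49 and 8.77 in the other mice (log2 FC -0.86 ± 0.11 against the 3-digit mice, limma, FDR = 8.05e-07).

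Astrocyte genes were lower in metestrus for 5 of 12 (41.7%, as against 2.25% of all genes, and from 2 to 5 as single mice were left out) and higher for 0. Against the 3-digit mice 5 were lower, with 4 by each of the other 3 fits, and within diestrus 4 were higher in the 3-digit mice (1.2% of all genes were). That count was 1 by edgeR, 2 by DESeq2, 2 by limma without weights, 1 with age as a covariate and 0 to 4 as single mice were left out. The summed level of the list was 3053 to 3862 CPM in metestrus, 4566 to 5095 CPM in the 3-digit mice, and 3944 and 3245 CPM in mice 2592 and 7_1. Ndrg2, an astrocyte-enriched member of the NDRG family, had 8.85, 8.94, 8.68, 9.19 and 8.97 in metestrus, 9.72, 9.77, 9.86 and 9.54 in the 3-digit mice, and 9.07 and 8.77 in the other mice. The 3-digit mice were above all others (log2 FC -0.77 ± 0.12, limma, FDR = 9.63e-06). Aldoc, an aldolase of glycolysis, had -0.57 ± 0.12 and Aldh1l1, a folate enzyme, -0.59 ± 0.13 against the 3-digit mice, and 0.02 ± 0.18 and 0.18 ± 0.20 against the other mice.

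Respiratory chain subunits of the nuclear genome were lower in metestrus for 7 of 81 (8.64%, as against 2.25% of all genes) and higher for 1. Of 81 cytosolic ribosomal protein genes 4 were lower (4.94%). The medians were -0.18 and -0.23. Cox6a1, a subunit of cytochrome c oxidase, had a log2 FC of -0.49, Ndufb9, a subunit of complex I, -0.42, and Cox8a -0.39. For the ribosomal proteins, Rpl37 had -0.41, Rpl4 -0.26 and Rpl22 -0.24. As single mice were left out, these counts of lower genes ran from 1 to 10 and from 0 to 9. Of the same lists 9 and 12 genes were lower than in the 3-digit mice, with 5 to 17 and 2 to 35 as single mice were left out, and edgeR, DESeq2 and limma without weights each called 0. Of 13 mRNAs of the mitochondrial genome and 37 proteasome subunits, 0 were called.

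Endothelial genes were lower in metestrus for 3 of 10 (30%, as against 2.25% of all genes, and from 1 to 3 as single mice were left out). In the 3-digit comparison 3 were lower, with 1 by each of the other 3 fits. The list had a median log2 FC of -0.60 against all diestrus mice, -0.55 against the 3-digit mice and -0.79 against the other mice. Ly6c1, a surface protein of brain endothelium, had 2.90, 3.43, 2.71, 3.17 and 2.47 in metestrus, 3.70, 4.16, 4.18 and 4.23 in the 3-digit mice, and 4.02 and 3.29 in the other mice. Only mouse 7_1 fell into the metestrus range. Ly6c1 had a log2 FC of -1.11 ± 0.22 against the 3-digit mice (limma, FDR = 0.000388) and -0.73 ± 0.34 against the others. Flt1, a VEGF receptor, had -0.97 ± 0.30 and -0.96 ± 0.43, and Slco1a4, a transporter of the blood-brain barrier, -0.81 ± 0.29 and -1.20 ± 0.40. In each of these genes metestrus mouse 11_1 was the highest of its group. The summed level of meningeal fibroblast markers was also highest there (85.1 CPM against 29.5 to 43.0 in the other metestrus mice). In diestrus this level was 82.8 CPM in mouse 2592, 27.7 in 7_1 and 32.4 to 41.8 in the 3-digit mice. Summed endothelial level was 37.7 to 72.4 CPM in metestrus, 54.7 to 78.8 in the 3-digit mice, and 92.0 and 54.8 in the others.

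Blood genes were higher in metestrus for 4 of 5 (80%, as against 8.2% of all genes), with a median of 0.82. Their summed level was 272 to 486 CPM in metestrus, 170 to 249 CPM in the 3-digit mice, and 397 and 193 CPM in the others. Alas2, the heme enzyme of red cells, had a log2 FC of 0.98. Hba-a1 and Hba-a2 had 0.85 and 0.82, but these globin genes are near-identical copies that share reads and count as 1 measurement. For the 3-digit mice edgeR and limma without weights called 0 of the 5 and DESeq2 1. The count of blood genes against all diestrus mice ran from 0 to 5 as single mice were left out.

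Microglia had 4 of 11 genes higher (36.4%, as against 8.2% of all genes) and 1 lower. From 1 to 5 were higher as single mice were left out. Each of the other 3 fits called 1 higher and 1 lower against the 3-digit mice. Cx3cr1, the fractalkine receptor, had a log2 FC of 0.46, Tmem119 0.51 and C1qb, a complement chain, -0.51. Immediate early genes, which neuronal activity induces, were higher for 3 of 18 (16.7%, as against 8.2% of all genes). They were Nr4a1 (0.91), Fos (0.98) and Egr2 (1.24), and the count ran from 1 to 6 as single mice were left out. Nr4a1 had 6.95, 6.20, 6.64, 7.34 and 7.51 in metestrus, 5.88, 6.12, 5.91 and 6.10 in the 3-digit mice, and 6.35 and 7.01 in the other mice. Its log2 FC was 1.00 ± 0.20 against the 3-digit mice (limma, FDR = 0.000342), and it was the 1 immediate early gene that the other 3 fits called there. Cholesterol synthesis genes were higher for 5 of 23 (21.7%, as against 8.2% of all genes) and lower for 1. The higher count ran from 0 to 7 as single mice were left out. Msmo1, a sterol oxidase, had 0.39 and Nsdhl -0.34, and against the 3-digit mice each of the other 3 fits called 0 of 23.

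**Figure D4:**
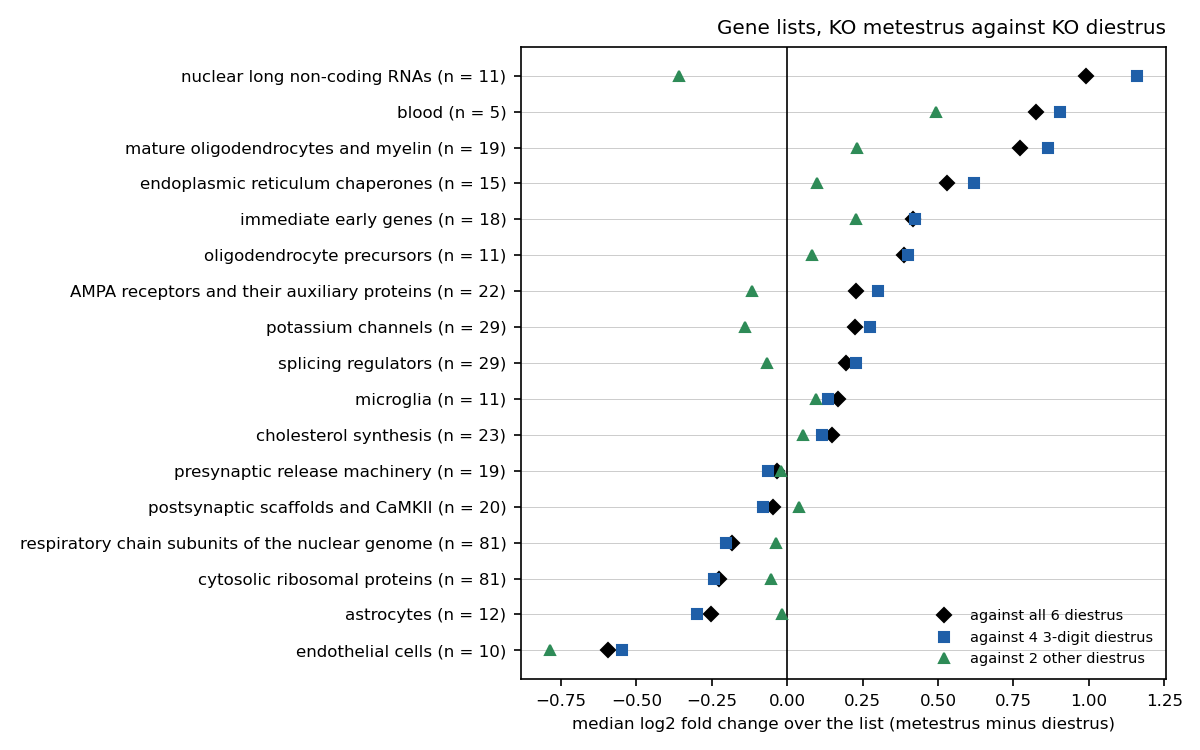
Median log2 FC (x axis, metestrus minus diestrus) of the 17 gene lists with 3 or more members called (y axis, n genes tested), against all 6 diestrus mice (diamonds), the 4 3-digit mice (squares) and the 2 other mice (triangles). Triangles lie nearer to 0 than squares for most lists, on the other side of 0 for some, such as nuclear long non-coding RNAs (-0.36), and farther from 0 for endothelial cells (-0.79).

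Steroid receptors and neurosteroid enzymes had 1 of 14 genes higher (7.14%, as against 8.2% of all genes) and 1 lower. Cyp46a1, which turns over brain cholesterol, had 6.04, 4.95, 6.08, 6.12 and 4.88 in metestrus, 4.47, 4.65, 3.98 and 4.55 in the 3-digit mice, and 4.58 and 5.76 in the other mice. Mice 11_1 and 7_2 were more than 1 log2 unit below the other metestrus mice (log2 FC 1.27 ± 0.32, limma, FDR = 0.00747). Gper1, a membrane estrogen receptor, had 0.28 to 0.95 in metestrus, 0.86 to 2.13 in the 3-digit mice, and 1.47 and -0.12 in the others (log2 FC -0.97 ± 0.29, limma, FDR = 0.0219). Glucocorticoid responsive genes had 1 of 16 higher (6.25%), Errfi1 (0.46), and 1 lower, Sult1a1 (-0.67). Circadian clock genes had 1 of 16 higher, Arntl, the activator Bmal1 (0.61). The shares of higher genes in these lists lie below the 8.2% of all genes. Lower genes made up 7.14% of the steroid list and 6.25% of the glucocorticoid list, as against 2.25% of all genes, but each is 1 gene.

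In the dentate gyrus list only C1ql2, a secreted synaptic protein of granule cells, was called (1 of 7, 14.3%, log2 FC 1.12). In the CA1 list Wfs1 (0.78) and Fibcd1 (0.40) were called (2 of 7, 28.6%, as against 8.2% of all genes). Wfs1, an ER membrane protein, had 6.33 to 6.84 in metestrus, 5.63 to 5.74 in the 3-digit mice, and 6.52 and 6.38 in the others. Of 15 interneuron genes, Slc32a1, the vesicular GABA transporter, was higher (0.86) and so was Reln (0.81), whereas Sst, the peptide somatostatin, had 7.47 to 8.04 in metestrus and 7.35 to 8.14 in diestrus (log2 FC 0.03 ± 0.13, limma, FDR = 0.910). Of 5 opioid genes tested Pdyn, prodynorphin, was higher (0.49). Of 14 antigen presentation and interferon genes B2m was lower (-0.45), and of 13 core proteins of spliceosomal snRNPs Snrnp70 was higher (0.53). In metestrus against all diestrus mice, limma called 0 genes in the lists for CA2 and CA3 cells, immature neurons, choroid plexus, pituitary, thalamus, neocortex, meningeal fibroblasts, snoRNA host genes and the Bex and Tceal family.

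Some genes had values that separated all 5 metestrus from all 6 diestrus mice. Over all 16168 genes, 75 were separated (0.464%), 35 higher and 40 lower in metestrus. With labels given at random, a gene would be separated in either direction with a probability of 0.00433 (462 possible splits of the mice). The 0.464% found lies near that level, so separation of a gene does not by itself show a difference between stages. Among the 1689 DEGs 49 were separated (25 higher and 24 lower). From the 3-digit mice alone 1184 DEGs were separated (2160 of all genes), and from the other mice alone 118 (917 of all genes). The probability of 0.00433 does not hold for these counts. With fewer diestrus mice, separation at random is more frequent, and most so against the other mice, so these counts do not by themselves show a difference. Since separation and the call use the same values, the 49 are a description. With a mean of at least 2 log2 CPM and a gene symbol that is no gene-model name, 30 remained (17 higher and 13 lower), and the 10 widest in each direction are given here.

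Adamts4 (chromosome 1, 171250421 to 171260637), a secreted protease of proteoglycans that oligodendrocytes express, had 3.99, 4.23, 4.14, 4.11 and 4.06 in metestrus, 3.08, 2.51, 2.46 and 3.18 in the 3-digit mice, and 3.51 and 3.94 in mice 2592 and 7_1. Mouse 7_1 was just below the lowest metestrus mouse. The log2 FC was 1.16 ± 0.20 against all diestrus mice (limma, FDR = 0.000220) and 0.37 ± 0.28 against the others alone. Slc6a9 (chromosome 4, 117834506 to 117875198), the glycine transporter GlyT1, had 3.25, 3.30, 3.47, 2.91 and 2.96, then 2.29, 1.65, 2.04 and 2.12, then 2.76 and 2.90. Itgb4, an integrin of laminin contacts, had 2.89, 2.90, 3.09, 2.58 and 2.56, then 2.01, 1.65, 1.59 and 1.97, then 1.97 and 2.36. In Itgb4 the other diestrus mice stayed closer to the 3-digit mice, with a log2 FC of 0.63 ± 0.30 against them (unadjusted p = 0.0444). The remaining genes higher in metestrus were Olfml1 (log2 FC 0.79), an olfactomedin-like secreted protein, Slc1a6 (0.75), the glutamate transporter EAAT4, Cpm (0.70), a membrane carboxypeptidase, Sox2ot (0.61), a long RNA that spans Sox2, Litaf (0.59), a late endosomal protein, Arid3b (0.58), a DNA-binding protein, and Ermn (0.51), a cytoskeletal protein of myelin. The cDNA method does not keep strand, so that Sox2ot and genes on the opposite strand cannot be told apart. The same holds for the stretch that Slc6a9 shares with B4galt2 (chromosome 4, 117869260 to 117883487), a lower gene given below that lies on the opposite strand.

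Smc1a (chromosome X, 152016428 to 152062694), a subunit of the cohesin ring, had the smallest FDR of these genes. It had 5.98, 6.18, 6.13, 6.07 and 6.12 in metestrus, 6.71, 6.63, 6.78 and 6.83 in the 3-digit mice, and 6.41 and 6.33 in the other mice. The other diestrus mice lay between the 2 sets (log2 FC -0.61 ± 0.08, limma, FDR = 1.31e-05; -0.29 ± 0.13 against the other mice, unadjusted p = 0.0243). Fmn2 (chromosome 1, 174501825 to 174822729), a formin that builds actin filaments, had 4.38, 4.75, 4.61, 4.75 and 4.64 in metestrus, 5.16, 5.07, 5.16 and 5.16 in the 3-digit mice, and 5.10 and 5.07 in the other mice. Its log2 FC was -0.54 ± 0.10 against the 3-digit mice (limma, FDR = 8.43e-05) and -0.48 ± 0.15 against the other mice (unadjusted p = 0.00169), and 0.05 between the kinds of diestrus mice. DESeq2 also called Smc1a (FDR = 0.00891) and Fmn2 (FDR = 0.0343) against all 6 diestrus mice. Its other calls, named after their values were seen, were Gm28438, at 5.26 to 5.76 in the 3-digit mice and at most 2.40 elsewhere, and Tmem163, at 9.08 in mouse 532 and at most 2.29 in the other 10 mice, which limma did not call (limma, FDR = 0.483).

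The other lower genes were Cst6 (-0.53), a protease inhibitor, Cox7c-ps1 (-0.51), a pseudogene whose reads may come from Cox7c, Tbata (-0.47), B4galt2 (-0.38), a galactosyltransferase, Slc1a2 (-0.36), the main glutamate transporter of astrocytes, Smim4 (-0.35), a small membrane protein, Mgst3 (-0.33), a glutathione transferase, and Neurl1a (-0.31), an E3 ubiquitin ligase. Slc1a2 had 9.05, 9.40, 9.14, 9.36 and 9.06 in metestrus, 9.49, 9.50, 9.78 and 9.48 in the 3-digit mice, and 9.48 and 9.43 in the other mice, so that mice 11_1 and 7_1 nearly met. All 4 fits called 11 of these 20 genes against the 3-digit mice.

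**Figure D5:**
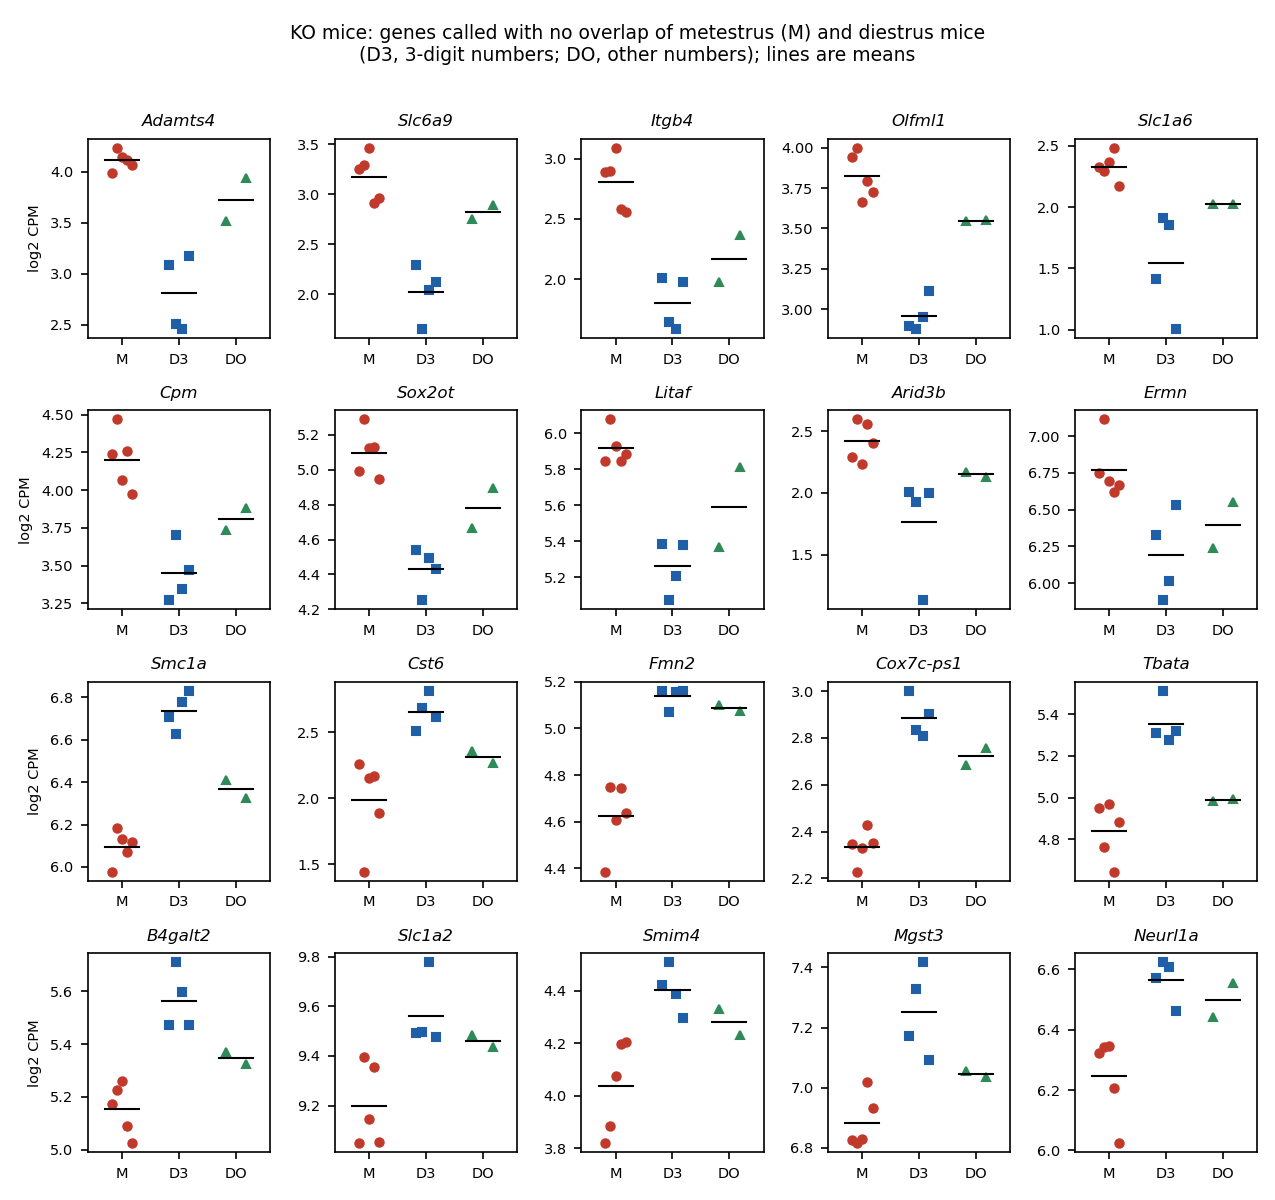
log2 CPM (y axis) of the 20 named genes whose values do not overlap between the 5 metestrus (M) and 6 diestrus mice, with 1 point per mouse, D3 for 3-digit and DO for other diestrus mice, and lines at the means. In most panels DO lies between M and D3, as with Smc1a at 6.33 and 6.41, and in Fmn2 it lies with D3 at 5.07 and 5.10.

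Further genes that the study names were not called between metestrus and all diestrus mice. Prl, the pituitary hormone prolactin, had 6.81, 4.96, 5.26, 3.48 and 2.62 in metestrus, 4.98, 0.92, 5.96 and 1.32 in the 3-digit mice, and 2.51 and 4.68 in the others (log2 FC 1.42 ± 0.78, limma, FDR = 0.238). Otx2, a transcription factor of the choroid plexus, had -1.60, 3.26, 0.87, -0.67 and 0.69, then 1.76, 1.33, 1.32 and -1.28, then -0.04 and 0.42 (limma, FDR = 0.635). Prlr, the prolactin receptor, had 1.45, 4.33, 1.06, 1.00 and 1.56, then 2.32, 2.09, 2.16 and 1.59, then 1.35 and 1.24 (limma, FDR = 0.719). In Otx2 and Prlr the highest value of the 11 was in mouse 11_1, which also had the highest choroid plexus level. Srd5a3, of the steroid reductase family, had a log2 FC of 0.71 (limma, FDR = 0.0804), Depp1 1.00 (FDR = 0.129), Avpr1b, a vasopressin receptor, 0.44 (FDR = 0.510), Plin4, a lipid droplet protein, -0.57 (FDR = 0.502) and Sncg -0.13 (FDR = 0.656).

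Whether the difference between metestrus and diestrus was itself different in KO and WT was tested as an interaction. Limma called 0 genes (smallest FDR 0.99998), with 570 genes at unadjusted p under 0.05 (3.53%), and edgeR and DESeq2 called 0 each (184 and 198 at unadjusted p under 0.05). WT diestrus also holds mice with 3-digit numbers, so the split by number form is present in both genotypes. The interaction is also less precise, as for Meg3, with an SE of 0.53 log2 units against 0.35 for the KO difference. A miss of the threshold therefore does not show that the stage difference was alike in KO and WT.

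Age was fitted as well, with a slope estimated over all 55 mice. With it, metestrus against all diestrus mice had 74 DEGs (63 higher and 11 lower) in place of 1689, of which 6 were myelin genes and 1 an ER chaperone. None of the nuclear RNAs, splicing regulators, AMPA receptor genes or astrocyte genes was called in that fit. Against the 3-digit mice it had 2186, with 14 of 19 myelin genes and 6 of 11 nuclear RNAs higher. With mice of at least 13 weeks alone, which leaves 532, 2592 and 7_1 in diestrus, 0 genes were called by limma (479 at unadjusted p under 0.05).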

How the data were processed

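RNA of 55 dorsal hippocampi, 1 library per mouse, was reverse transcribed from poly-A ends with a method that does not keep strand. The authors aligned reads with STAR 2.7.9a to GRCm38 and deposited raw gene counts from featureCounts 2.0.3, with no normalization. Repeated lines of the deposited table (287) were dropped, and 1 column that matched no sample was not used. The filter of the study was applied (more than 1 CPM, 10 libraries or more, without 5 genes of ribosomal RNA), and 16168 genes passed. The authors also deposited log2 CPM values made with TMM factors, which the values computed here matched within 4.97e-14 over 16164 genes. TMM factors and voom with quality weights (limma 3.58.1, edgeR 4.0.16, R 4.3.3) were fitted over all 55 libraries in 10 groups, as in the study, with KO diestrus also split by number form, and p-values were adjusted by Benjamini-Hochberg over all genes. log2 CPM values use TMM-scaled totals. DESeq2 1.42.0, edgeR's quasi-likelihood test and limma without weights were alternatives, as were age as a covariate, no filter and leaving out single mice. The fits were tested on counts simulated with no split within diestrus and no difference in library quality. That test cannot judge the calls that rest on library weights. Totals of the 11 libraries were 49028581 to 61472649 counts. No 2 of the 11 libraries were the same (highest correlation 0.988).

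Named genes were the 3 of smallest p in each gene list, the 10 DEGs per direction of largest log2 FC whose groups do not overlap, the 5 per direction that differ most within diestrus, and genes the study names. Of these, 3 genes are not reported here. The members and lists were chosen with earlier results of these data known. Whether each mouse's tissue came from a separate litter or day is not given in the sources used here. Positions are from GRCm38 (GENCODE vM21).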

Additional observations from a re-analysis of the deposited data

Results flagged for a closer look

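Among 88 groups of values (42 named genes, total counts and age, each in metestrus and in diestrus), 4 values stood far from the rest of their group by Dixon's test, and chance alone flags about 1 in 20 groups. Mouse 644 had the lowest diestrus value of Arid3b (1.13 log2 CPM) and the highest of Slc1a2 (9.78 log2 CPM). Mouse 11_1 had the highest metestrus values of Ermn (7.12 log2 CPM) and Prlr (4.33 log2 CPM). The summed level of choroid plexus markers was 1956 CPM in mouse 11_1 and 162 to 222 CPM in the other metestrus mice, and its part in the Prlr value was not tested.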

How the results depend on the processing

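Metestrus against all 6 diestrus mice had 1689 DEGs with library weights, and 0 with edgeR, 4 with DESeq2, 0 without weights, 348 without a filter on low counts, 74 with age as a covariate, 1328 from the 11 libraries alone, 2744 with only the 3-digit diestrus mice, 0 with only the other diestrus mice and 0 with mice of at least 13 weeks. Against the 3-digit mice the 2738 DEGs became 793 with edgeR, 1002 with DESeq2, 645 without weights, 1786 without a filter and 2186 with age. Against the other mice the 0 DEGs became 1 with DESeq2 and 38 without a filter, and stayed 0 in the other tests. Within diestrus the 1233 DEGs became 511 with edgeR, 593 with DESeq2, 497 without weights, 1980 without a filter and 1218 with age. As single mice were left out, these 4 counts ran from 667 to 2350, from 1786 to 3029, from 0 to 2 and from 719 to 1413. The interaction had 0 DEGs in every setting run. Where 1 mouse was left in an arm, it was taken to vary like the other groups. The causes of these shifts were not tested.

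Of the 105 named genes, the log2 FC against all 6 diestrus mice changed sign with edgeR for Otx2 0.59, Prlr 0.73 and Sst -0.071, with DESeq2 for Otx2 0.58, Prlr 0.71 and Sst -0.081, and without weights for Prlr 0.088 and Sst -0.060. It did so for Sst without mouse 532 (-0.12), 645 (-0.051) or 6_1 (-0.080). With mice of at least 13 weeks it changed sign for Avpr1b -0.35, Ezr 0.21, Ftx -0.19, Kcnk9 -0.12, Luc7l3 -0.0069, Malat1 -0.37, Meg3 -0.077, Miat -0.22, Olfr287 0.14, Plin4 0.27, Prlr 0.052, Reln -0.083, Snhg11 -0.21, Sst -0.11 and Syt1 -0.043. With only the other diestrus mice it changed sign for Aldh1l1 0.18, Aldoc 0.027, Avpr1b -0.51, C1qb 0.0093, Calr -0.092, Camk2a 0.12, Clk1 -0.087, Cox8a 0.034, Cx3cr1 -0.034, Dio2 0.064, Ezr 0.44, Ftx -0.63, Gabra2 0.0067, Gal3st1 -0.0010, Gria2 -0.14, Kcnk9 -0.40, Kcnt1 -0.22, Kif5a 0.056, Luc7l3 -0.17, Malat1 -0.89, Meg3 -0.64, Miat -0.78, Ndrg2 0.019, Nptx1 -0.0082, Olfr287 0.36, Pdyn -0.050, Plin4 0.57, Prlr 0.27, Reln -0.46, Rpl4 0.032, Rsrp1 -0.30, Sdc4 0.036, Snhg11 -0.62, Sst -0.24, Sult1a1 0.12, Sv2a -0.17, Syp -0.026 and Syt1 -0.20. With the 3-digit mice alone 0 of the 105 changed sign. No paired analysis was possible because the labels give mouse numbers and no replicate numbers, and the start of a number is shared by 1 pair alone (7_1 in diestrus and 7_2 in metestrus), with no statement of what it marks.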
